A study of Homo sapiens with 11 samples.

Results

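The surface antigen genes used to recognise B-precursor leukaemia were examined in Reh cells, an established line of B-precursor leukaemia with an ETV6-RUNX1 fusion. The 9 genes were taken by symbol, CD22, MME, CD34, CD38, FLT3, ANPEP, CD9, CD24 and CD27, and all 9 were found among the 19775 genes measured. Each gene was read from its single-symbol probe set with the highest mean over the 11 arrays, and values are log2 expression. In every group the cells stably expressed miR-125b after lentiviral infection and received precursor oligonucleotides with Lipofectamine. In 3 arrays the oligo was miR-99a at 66 µM, in 3 it was miR-100 at 66 µM, in 3 both were given at 33 µM each, and in 2 control arrays it was a scrambled sequence at 66 µM. A second transfection followed after 72 h and the cells were harvested 48 h later. Resistance to vincristine was determined by an MTT viability assay with 9 ng/mL for 3 days, and no array is labelled as given the drug. The infected cells were not described as a single clone, arrays without miR-125b were not analysed here, and the labels mention triplicate incubation without tying an array to a culture. The p-values measure only the spread between these arrays, which may be technical.

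Leukaemic B precursors are recognised in the clinic by combinations of proteins on their surface. CD22 and CD24 mark the B lineage, MME (CD10) is the common acute lymphoblastic leukaemia antigen, CD34 and the cytokine receptor FLT3 (CD135) are kept by early progenitors, and CD38 and CD9 accompany early B development. CD27 is a tumour necrosis factor receptor of memory B cells that some precursor leukaemias carry. ANPEP (CD13) is an aminopeptidase of myeloid cells that can also appear on leukaemic B precursors, above all on those with ETV6-RUNX1. A microRNA lowers messenger RNAs that pair with its seed, bases 2 to 8, and such pairing is sought mainly in untranslated regions, which were not searched here.

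The mature sequences of the oligos' microRNAs are shown because they define the treatments, with the seed in capitals (RefSeq, GRCh38.p14, 5′ to 3′).
miR-99a-5p: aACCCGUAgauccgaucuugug
miR-100-5p: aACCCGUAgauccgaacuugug
miR-125b-5p: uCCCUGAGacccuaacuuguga
The miR-99a and miR-100 sequences share their seed and differ at 1 of 22 bases, U16A with the miR-99a base first and positions counted from the 5′ end, whereas miR-125b has another seed. MIR99A lies at chr21:16539101-16539122 (plus strand, mature part) and MIR100 at chr11:122152275-122152296 (minus strand).

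The cells carried the marker genes of their label. Of 11 measured B-precursor markers 10 stood above 8, with DNTT at 13.09 and VPREB1 at 5.48, and the mean of the list lay between 10.63 and 10.88 in treated arrays and 10.63 and 10.81 in control arrays. No marker stood above 8 among 10 of myeloid cells, 10 of T and NK cells, 8 of erythroid cells and platelets and 10 of fibroblasts and epithelium, whose means lay between 5.68 and 6.09 on every array. Arrays numbered replicate 3 stood apart in all treatments: Pearson's r over genes was 0.998 among them but 0.991 to 0.992 with arrays 1 and 2 of the same treatment. No control array has the number 3, so the results against control are also given from arrays numbered 1 and 2. What the number stands for is not stated in the labels.

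Among the 9 genes, CD24 and ANPEP had the brightest probe sets and CD34 and CD27 lay below the median gene, at 6.4. Affinity varies between probe sets, so the levels place each gene against the array and do not rank the genes by amount. CD24, which encodes a heavily glycosylated small surface protein, ranged from 12.47 to 12.76 over the 11 arrays, the 99.3rd percentile of all genes by its mean. ANPEP ranged from 11.05 to 12.21, at the 98.1st percentile. CD22, MME, FLT3 and CD9 had means of 8.93, 8.83, 8.74 and 8.63, between the 79.6th and the 83.4th percentile. CD38, an enzyme that consumes NAD, averaged 6.83. CD34 averaged 6.36, at the 49.2nd percentile and close to the median gene. CD27 averaged 5.86, at the 35.4th percentile, near the mean levels of the myeloid and T-cell markers above, while CD34 lay over those means.

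**Figure D1:**
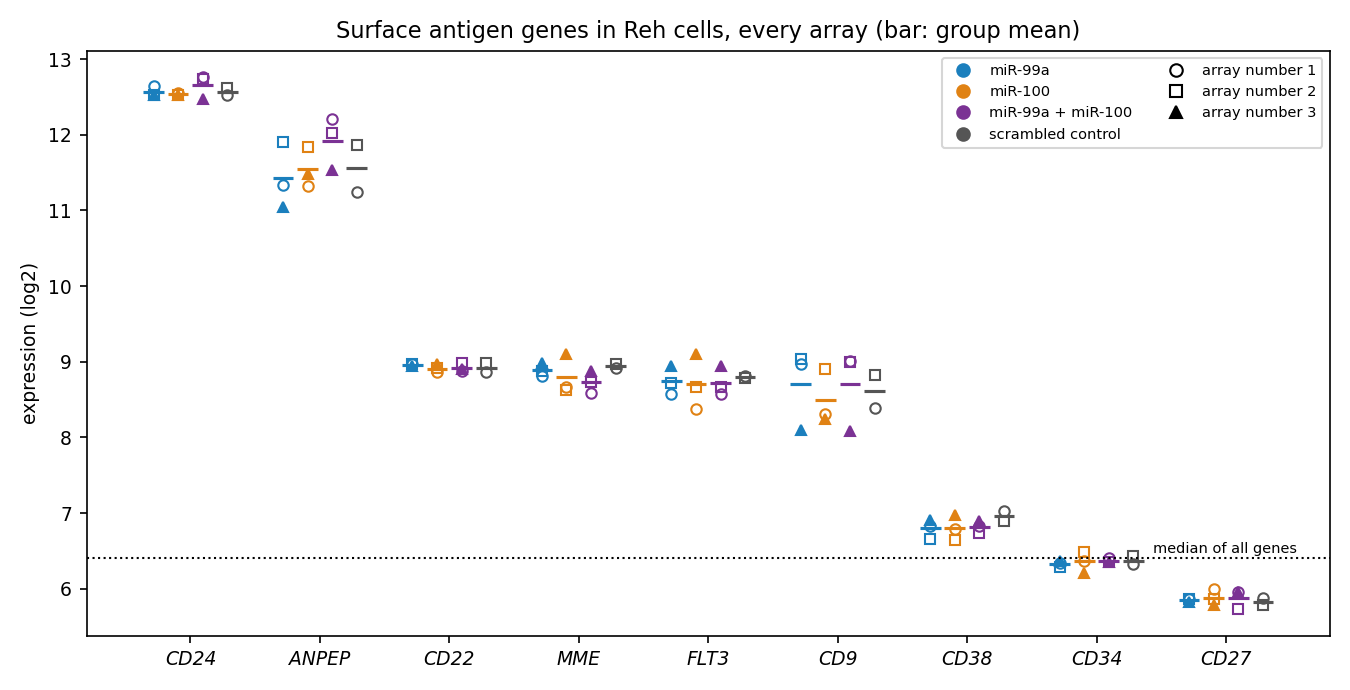
Expression (log2, y axis) of the 9 surface antigen genes (x axis) on every array, coloured by group, with a bar at each group mean and a symbol for the array number (1 circle, 2 square, 3 filled triangle). CD24 and ANPEP have the highest values, the group means of CD34 and CD27 lie below the median of all genes (dotted line, 6.4), and the triangles of CD9 lie between 8.09 and 8.24, under all its other points.

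The genes also differed in how much they varied. CD9, a tetraspanin that organises adhesion complexes in the membrane, had an SD of 0.4 over the 11 arrays and ANPEP one of 0.37, the 99.8th and 99.6th percentiles of all genes. FLT3 (SD 0.2) and MME (SD 0.16) followed at the 91.7th and 84.2nd percentiles. CD22, an inhibitory lectin of the B-cell receptor, was among the steadiest genes by the probe set used. Its SD was 0.05, at the 1.8th percentile, with a span of 0.12 between its lowest and highest array. Its next brightest probe set ran from 8.2 to 8.54 and a dim one from 6.03 to 6.53, so the steadiness is that of 1 probe set.

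The first comparison asks whether the oligos changed these antigens. No antigen gene passed limma's test in any treatment over all arrays. Against control, 0 of the 9 were called for miR-99a, for miR-100 or for the combination, where 0% of all genes were called in each (adjusted p from 0.9998 to 1 for the 9 genes). None of the 9 had an unadjusted p under 0.05, which 198 of all genes (1%) had for miR-99a, 305 (1.54%) for miR-100 and 724 (3.66%) for the combination. The medians of the 9 log2 differences were -0.041, -0.036 and 0.003, beside -0.006, -0.008 and -0.004 over all genes. For the mean of the treatments the values were 0 of 9 called, 0% of all genes, and a median of 0.013 beside -0.005, with an unadjusted p under 0.05 in 0 of 9 and in 489 of all genes (2.47%).

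MME encodes neprilysin, a peptidase. It stood at 8.59, 8.73 and 8.88 in arrays given both oligos, at 8.81, 8.88 and 8.98 with miR-99a and at 8.67, 8.62 and 9.1 with miR-100, against 8.92 and 8.97 in control. All 3 combination arrays lay below both control arrays, as in 11.4% of all genes, while the other treatments overlapped control through their array numbered 3. The log2 differences were -0.21 ± 0.14 with both, -0.06 ± 0.14 with miR-99a and -0.15 ± 0.14 with miR-100 (SE, n = 3 against 2, adjusted p from 0.9998 to 1 by limma). The group means were 8.73 ± 0.15 with both, 8.8 ± 0.26 with miR-100 and 8.89 ± 0.08 with miR-99a, against 8.95 ± 0.04 in control (SD). Neighbouring means in this order lay closer than the larger SD of each pair. The combination lay below control by more than either of their SDs.

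FLT3 encodes the receptor of a growth factor of early progenitors. It stood at 8.57, 8.72 and 8.94 with miR-99a, at 8.38, 8.66 and 9.1 with miR-100 and at 8.57, 8.66 and 8.94 with both, against 8.81 and 8.79 in control. In each treatment arrays 1 and 2 lay below control and array 3 above it. The difference of the treatments' mean from control was -0.08 ± 0.16 (95% interval -0.42 to 0.27). CD38 showed the same arrangement of arrays 1 and 2, at 6.64 to 6.83 in treated arrays against 7.03 and 6.89 in control, with its treated arrays numbered 3 at 6.91, 6.98 and 6.89.

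Without the arrays numbered 3, 3 of the 9 genes, MME, FLT3 and CD38, were below both control arrays in 6 of 6 treated arrays, as 10.9% of all genes were. In that fit of 8 arrays the mean of the treatments differed from control by -0.23 ± 0.07 for MME (95% interval -0.37 to -0.09, adjusted p 0.0746), -0.21 ± 0.08 for FLT3 (adjusted p 0.129) and -0.21 ± 0.07 for CD38 (adjusted p 0.111), by limma. CD9 had 0.27 ± 0.11 (adjusted p 0.191). These 4 of the 9 genes had an unadjusted p under 0.05, where 17.4% of all genes had one, and 0 of 9 were called, where 1% were, as with both oligos alone, where 1.47% were. The values for MME, FLT3 and CD38 were larger than over all arrays, where they were -0.14 ± 0.12, -0.08 ± 0.16 and -0.15 ± 0.09.

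**Figure D2:**
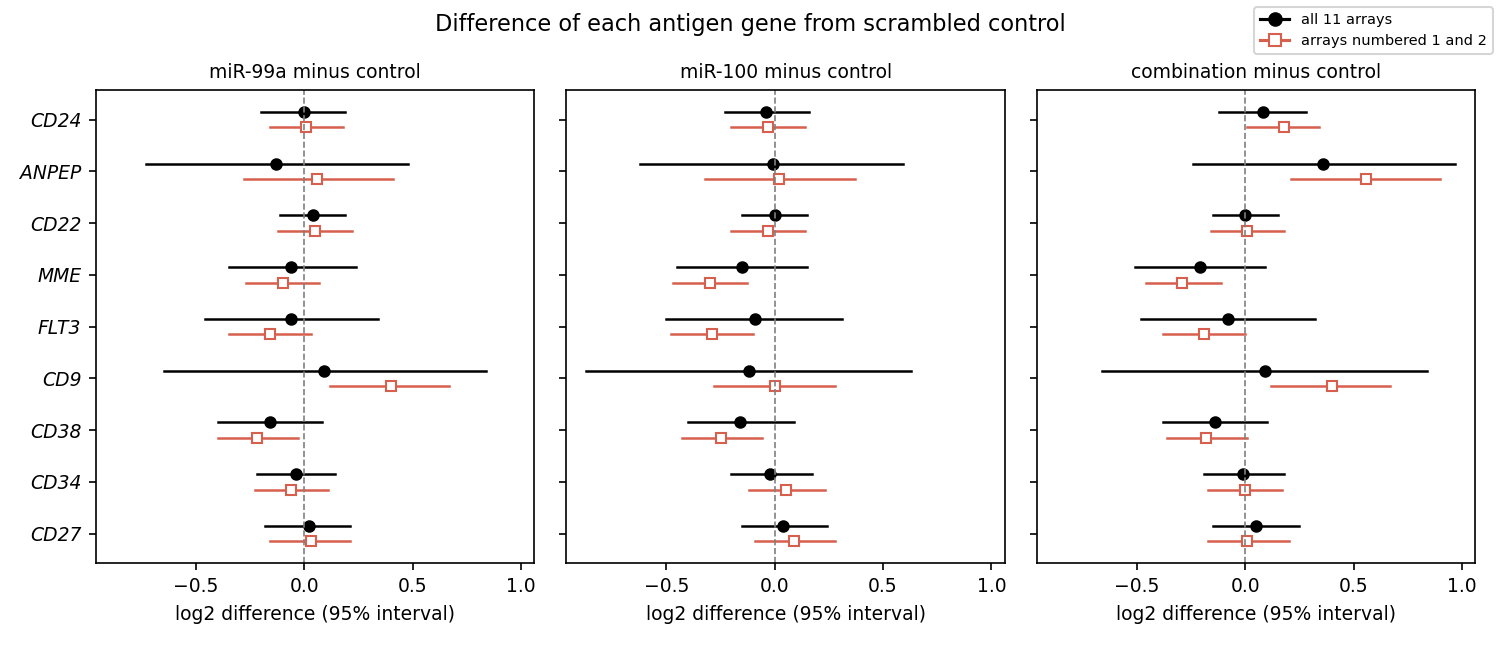
Log2 difference from scrambled control (x axis) with its 95% interval for each antigen gene (y axis), for miR-99a, miR-100 and both oligos. Black circles come from the fit of all 11 arrays and red squares from arrays numbered 1 and 2. All black intervals include 0, and with both oligos the red intervals of ANPEP (0.21 to 0.9), CD9 (0.12 to 0.67), CD24 (0.01 to 0.34) and MME (-0.46 to -0.11) do not. Red intervals also leave out 0 for 2 of the 9 genes with miR-99a and 3 with miR-100. In that fit 15.4% of all genes had an unadjusted p under 0.05 with both oligos, 9.62% with miR-99a and 17.3% with miR-100 (limma).

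CD9 stood at 9.01, 9 and 8.09 with both oligos, at 8.97, 9.04 and 8.1 with miR-99a and at 8.31, 8.91 and 8.24 with miR-100, against 8.39 and 8.83 in control. Arrays 1 and 2 of miR-99a and of the combination lay above both control arrays and array 3 of every treatment below them, so all groups overlapped. Over all arrays the differences were 0.09 ± 0.34 with both, 0.09 ± 0.34 with miR-99a and -0.12 ± 0.34 with miR-100. In arrays numbered 1 and 2 they were 0.4 ± 0.13 (adjusted p 0.132), 0.4 ± 0.13 (adjusted p 0.322) and 0 ± 0.13.

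CD22, CD34 and CD27 kept close to control. CD22 averaged 8.96 ± 0.02 in miR-99a arrays, 8.91 ± 0.05 in miR-100 arrays and 8.92 ± 0.05 in combination arrays, against 8.92 ± 0.08 in control (SD). CD34, the progenitor sialomucin, averaged 6.33 ± 0.04, 6.36 ± 0.14 and 6.37 ± 0.03 in the same groups, against 6.37 ± 0.08 in control. CD27 averaged 5.85 ± 0.02, 5.87 ± 0.11 and 5.88 ± 0.13, against 5.83 ± 0.08. The mean of the treatments differed from control by 0.01 ± 0.06 for CD22 (95% interval -0.12 to 0.14), -0.02 ± 0.07 for CD34 and 0.04 ± 0.08 for CD27. In arrays numbered 1 and 2 these differences were 0.01 ± 0.07, 0 ± 0.07 and 0.05 ± 0.07, and that of CD24 was 0.05 ± 0.07.

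ANPEP was the member that set the combination furthest from the single oligos. It stood at 12.21, 12.02 and 11.53 with both oligos, at 11.34, 11.91 and 11.05 with miR-99a and at 11.33, 11.84 and 11.48 with miR-100, against 11.25 and 11.87 in control. The combination was the highest array within each number, with array 1 far above the others of its number, and the groups overlapped. The group means were 11.92 ± 0.35 with both, 11.55 ± 0.26 with miR-100 and 11.43 ± 0.43 with miR-99a, against 11.56 ± 0.44 in control (SD). The combination lay above control by 0.36, about 1 SD, and the other groups differed by less than their spread.

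The difference of the combination from the mean of the single oligos was 0.43 ± 0.21 for ANPEP (95% interval -0.04 to 0.9, adjusted p 0.9998, limma), and 0 of the 9 genes were called, where 0% of all genes were. None of the 9 had an unadjusted p under 0.05, which 451 of all genes (2.28%) had. By array number it was 0.88, 0.15 and 0.26, so it was higher in 3 of 3. Same-numbered treated arrays deviated together in 9 of 9 pairs. Arrays of different numbers were not compared, so whether numbers 1 and 2 pair the treated arrays is not settled. With the number as a replicate block ANPEP had 0.43 ± 0.08 (adjusted p 0.0191, limma) and was the 1 gene called of 19775, or 0.00506%. That call rests on the arrays numbered 1. Without them the blocked difference was 0.21 ± 0.09 (adjusted p 1), on the treated arrays alone, and it was also not called when genes of unusual spread were moderated less (0.43 ± 0.15, adjusted p 0.754). Against control with both oligos ANPEP had 0.36 ± 0.28 over all arrays and 0.56 ± 0.17 in arrays numbered 1 and 2 (adjusted p 0.0888), made of 0.96 in number 1 and 0.15 in number 2.

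Fits with a term for the array number made more calls over all genes for both oligos and the mean of the treatments against control. They had only control arrays 1 and 2 to match. With a replicate block 3 of the 9 genes were called for both oligos, where 4.36% of all genes were, and they were ANPEP at 0.5 ± 0.11 (adjusted p 0.00439), MME at -0.3 ± 0.09 (adjusted p 0.0331) and CD9 at 0.34 ± 0.1 (adjusted p 0.0433). None of the 9 was called for miR-99a, miR-100 or the mean of the treatments, where 0.0253%, 0.0354% and 2.56% of all genes were. With replicate 3 as the term none of the 9 was called, where 2.24% of all genes were for both oligos and 0.121% for the mean. Control and treated arrays of 1 number deviated together in 3 of 6 pairs (correlations of -0.152 to 0.438, against a minimum of 0.1). With group means removed, the 2 control arrays deviate by equal and opposite amounts, while array 3 shifts treated arrays 1 and 2 the same way. These pairs therefore cannot settle whether the numbers pair control with treated arrays.

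By the probe set used, CD24 was a little higher with both oligos in arrays 1 and 2, at 12.76 and 12.74. Control had 12.53 and 12.62, and array 3 of the combination was lower, at 12.47. The difference of CD24 from the single oligos was 0.1 ± 0.07 (adjusted p 0.9998). Its other probe sets had 0.13, 0.02, -0.05, -0.05 and -0.09, none called, where 0% of all probe sets were. The sign thus depends on the probe set. miR-100 and miR-99a, which share their seed, did not differ beyond the spread of their arrays in any antigen by limma over all arrays without a block (0 of 9 called, 0% of all genes, and 0 of 9 with an unadjusted p under 0.05, which 194 or 0.981% of all genes had). The 95% interval of miR-100 minus miR-99a was -0.88 to 0.45 for CD9, the widest of the 9, and -0.18 to 0.09 for CD22. In arrays numbered 1 and 2 alone CD9 had -0.4 ± 0.13 (95% interval -0.67 to -0.12, adjusted p 0.764). These intervals leave room for differences in CD9 and ANPEP. In arrays numbered 1 and 2, 2 of the 9 had an unadjusted p under 0.05, where 5.86% of all genes had one (limma). With the replicate block 0 of 9 were called, where 0.00506% of all genes were. There 1 of the 9 had an unadjusted p under 0.05, which was not counted over all genes.

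**Figure D3:**
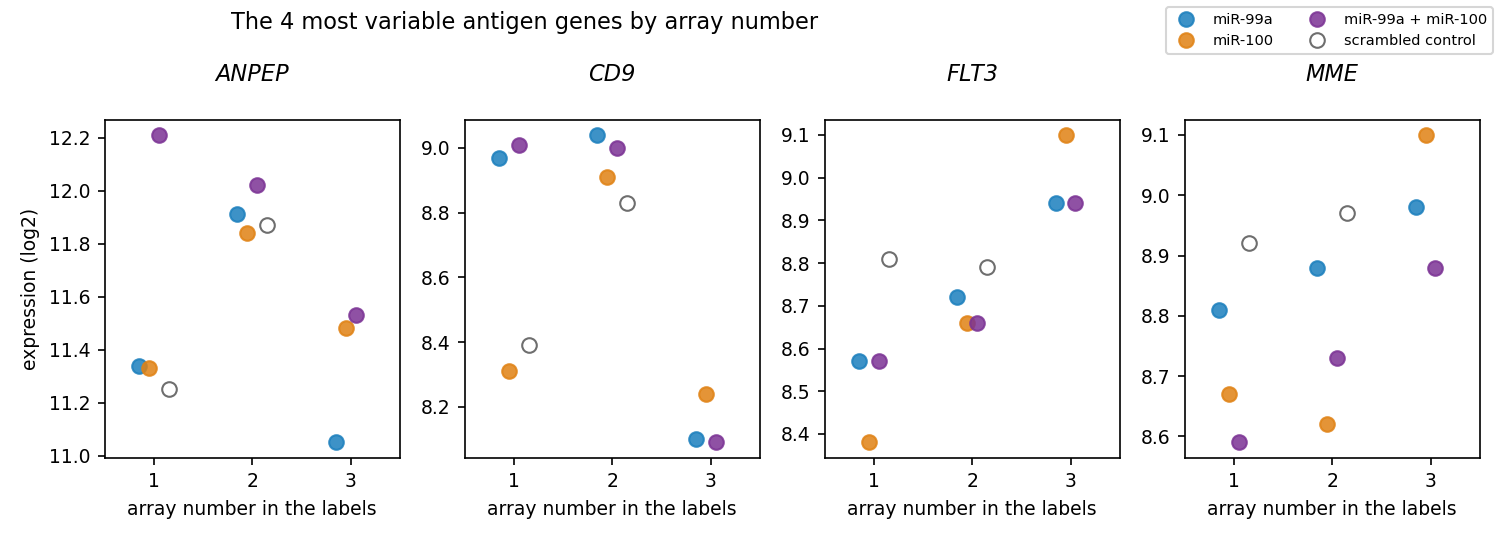
Expression (log2, y axis, with its own range for each gene) of ANPEP, CD9, FLT3 and MME by the array number of the labels (x axis), coloured by group, control as open circles. ANPEP of the combination is highest within each number, CD9 falls to between 8.09 and 8.24 in number 3, and FLT3 of numbers 1 and 2 lies below control.

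Among the contrasts fitted, the one between arrays numbered 3 and those numbered 1 and 2 within the treatments called the most antigen genes. Numbers 1 and 2 were not compared with each other. CD9 was lower in array 3, FLT3, MME and CD38 were higher, and CD22, CD34 and CD27 differed little. In the 9 treated arrays 3 members were called higher and 2 lower, while 17.1% and 12.2% of all genes were, 29.3% together. Many bright genes differ in this contrast: 54.7% of the 9888 genes at the median level or over it were called, and 5 of the 7 members that bright were. The median difference of the 9 was -0.024, beside 0.001 over all genes. This contrast was chosen because earlier results had shown these arrays to stand apart.

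CD9 stood at 8.1, 8.24 and 8.09 in the arrays numbered 3, against 8.31 to 9.04 in the 6 treated arrays numbered 1 and 2. The arrays did not overlap, and the control arrays, 8.39 and 8.83, lay within the range of numbers 1 and 2. The difference was -0.73 ± 0.09 (0.602-fold, adjusted p 1.7e-09, limma, n = 3 against 6; the SE from the gene's own spread was 0.18), made of -0.91 in miR-99a arrays, -0.37 in miR-100 arrays and -0.92 in combination arrays. FLT3 stood at 8.94, 9.1 and 8.94 in arrays numbered 3, against 8.38 to 8.72 in numbers 1 and 2, a difference of 0.4 ± 0.07 (1.32-fold, adjusted p 1.26e-05).

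MME had 8.98, 9.1 and 8.88 in arrays numbered 3, against 8.59 to 8.88 in numbers 1 and 2, 0.27 ± 0.07 higher (adjusted p 0.00148), and the call ended without miR-100 replicate 3 (0.18 ± 0.07, adjusted p 0.0801). CD38 differed by 0.18 ± 0.07 (adjusted p 0.0335), a call that ended without miR-99a replicate 2 or 3, miR-100 replicate 2 or 3 or combination replicate 2 (0.14 to 0.19, adjusted p 0.057 to 0.208). Arrays did not overlap in 4 of the 9 genes, CD9 below and FLT3, MME and CD38 above, while 25.9% of all genes did not overlap, 11% below and 14.9% above.

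ANPEP was 11.05, 11.48 and 11.53 in arrays numbered 3, against 11.33 to 12.21 in numbers 1 and 2, with overlap. Its arrays 1 and 2 also differed, at 11.34 and 11.91 with miR-99a, 11.33 and 11.84 with miR-100 and 12.21 and 12.02 with both. The difference of -0.42 ± 0.09 for arrays numbered 3 was called (adjusted p 0.000274, limma), but the gene's own spread gives an SE of 0.2. With the spread of such genes moderated less the adjusted p was 0.164, and the difference was -0.23 ± 0.11 after quantile normalization (adjusted p 0.118) and -0.14 ± 0.06 over the mean of its probe sets (adjusted p 0.098). In an exact permutation test, 2-sided and not adjusted for the 9 genes, the number 3 was moved over all 27 arrangements within the treatments. It gave 0.037 for CD9, FLT3 and MME, the smallest value it can give, 0.0741 for CD38 and 0.148 for ANPEP. The test was run on the 9 genes alone, so the share of all genes at that smallest value is not known. Of all genes 25.9% had arrays that did not overlap, so these p-values do not set the members apart. Whether the difference of array 3 varied between treatments was tested with an F test over all genes, and 0% of genes and none of the 9 passed (adjusted p 0.566 for CD9, 0.567 to 0.875 for the others; the unadjusted p was under 0.05 for CD9 alone, at 0.0255).

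**Figure D4:**
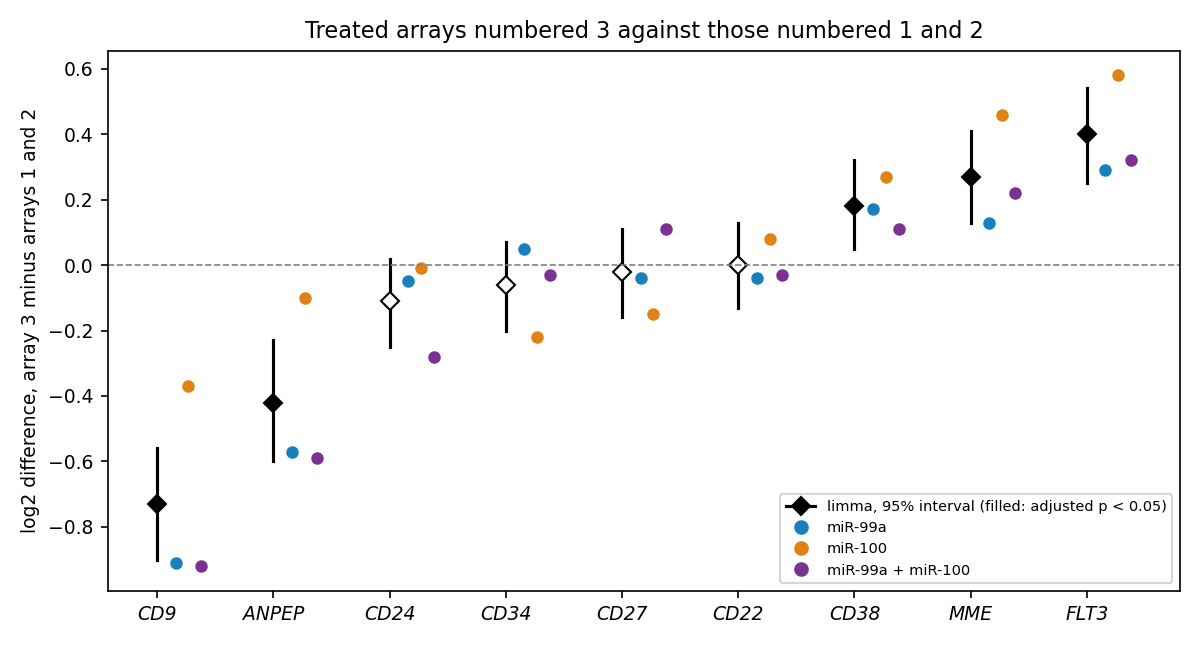
Log2 difference (y axis) of treated arrays numbered 3 from those numbered 1 and 2 for each antigen gene (x axis), as the limma estimate with its 95% interval (diamond, filled where the adjusted p is under 0.05) and for each treatment (coloured points). CD9 has the lowest value, -0.73, and FLT3 the highest, 0.4. The coloured points of CD9, ANPEP, CD24, CD38, MME and FLT3 keep 1 sign in all treatments, those of CD24 reaching -0.01 with miR-100.

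Several members have more than 1 probe set, and for CD24 the choice matters in this contrast too. The brightest of its 6 probe sets, used here, differed by -0.11 ± 0.07 (adjusted p 0.24 over 41091 probe sets), and this value turned to 0.1 ± 0.05 after quantile normalization. By comparison, the probe set with a mean of 11.55 had -0.61 ± 0.07 (adjusted p 3.75e-09) and the one with a mean of 10.09 had -0.46 ± 0.07 (adjusted p 3.8e-06), and the remaining 3 lay between -0.08 and -0.07. In the first of these the values were 11.22, 11.24 and 10.98 in arrays numbered 3, against 11.72 to 11.84 in numbers 1 and 2. The mean of the 6 probe sets had -0.23 ± 0.05 (adjusted p 0.00476). CD24 has near-identical copies in the genome, so its probe sets may read other transcripts and its value is uncertain. Of all probe sets 24.5% were called.

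The other genes gave a simpler picture. Both MME probe sets rose, by 0.27 ± 0.07 and 0.3 ± 0.07 (adjusted p 0.00202 and 0.000641). Of the 4 CD22 probe sets 1 dim one, at 6.23, had 0.28 ± 0.07 (adjusted p 0.00124), while the bright pair had 0 ± 0.06 and 0.07 ± 0.07. The further probe sets of ANPEP and CD9 stood at 5.32 to 5.62 and were not called.

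**Figure D5:**
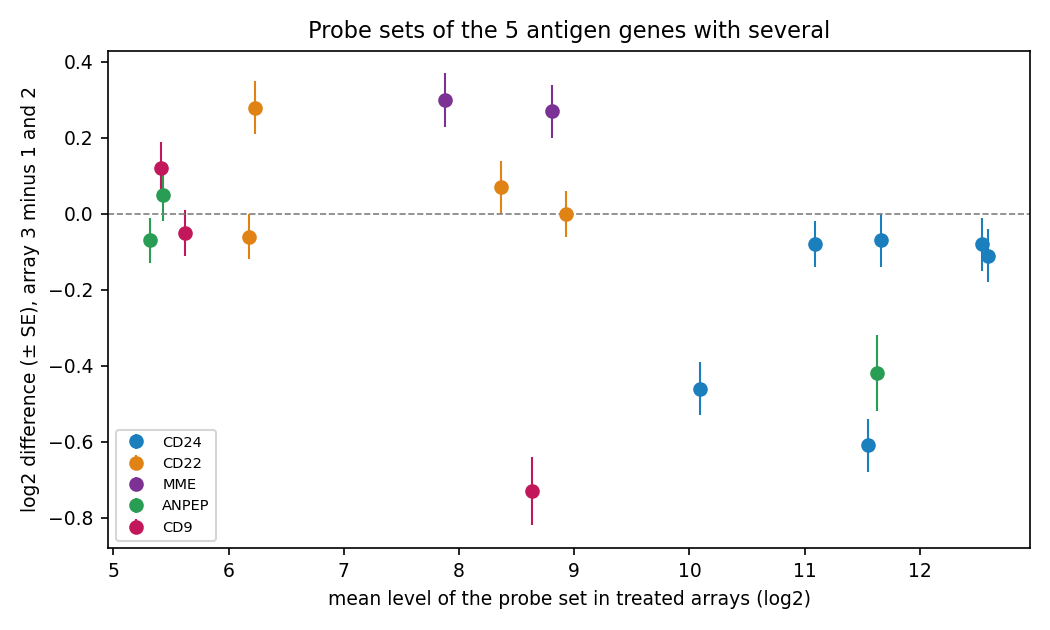
Log2 difference (± SE, y axis) of treated arrays numbered 3 from those numbered 1 and 2 against the mean level (log2, x axis) of each probe set of CD24, CD22, MME, ANPEP and CD9. The CD24 probe sets fall into 2 at -0.61 and -0.46 and 4 between -0.11 and -0.07, while both MME probe sets lie near 0.3.

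Other surface antigens of B-cell typing were set beside the members. Of 35 measured, none was called in the mean of the treatments against control (limma, median difference 0.009, beside -0.005 over all genes, smallest unadjusted p 0.0842 for CD53, a leukocyte tetraspanin, at -0.14 ± 0.07, and then NT5E, an ectonucleotidase, at 0.07 ± 0.06). The brightest were IL7R, the interleukin 7 receptor (11.55), CD47, CD74, CD79B and CD58 (11.19, 11.12, 11.09 and 11.07). MS4A1 (CD20), CR2 (CD21) and CD44 stood at 5.44, 5.2 and 5.6, below the median gene. In arrays numbered 3, 4 of the 35 were called higher and 9 lower, or 37.1%, with a median of -0.057, beside 29.3% of all genes and 54.7% of the brighter ones. CD58, an adhesion ligand of T cells, had -0.62 ± 0.07, the phosphatase PTPRC (CD45) 0.56 ± 0.07, the "do not eat me" signal CD47 -0.52 ± 0.07 and the B-cell receptor component CD79A -0.56 ± 0.08.

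Of 28 ligands, partners and signal carriers of the members, none was called against control (limma, median -0.005, smallest unadjusted p 0.0887 for ITGA6, -0.15 ± 0.08, and 0.175 for PTPN6, a phosphatase recruited by CD22, 0.12 ± 0.08). In arrays numbered 3, 6 were called higher and 6 lower, or 42.9%, with a median of 0.034, beside the same 29.3% and 54.7%. CD81, a tetraspanin partner of CD9 counted with the typing antigens, had -0.48 ± 0.07 (10.42 to 10.66 in arrays numbered 3, against 10.9 to 11.12 in numbers 1 and 2), and the tetraspanin CD63 had -0.58 ± 0.07. SIVA1, which binds the tail of CD27, had -0.52 ± 0.07. CD70, the ligand of CD27, had -0.46 ± 0.07 although CD27 itself was dim and had -0.02 ± 0.07. FLT3LG, the ligand of FLT3, had -0.2 ± 0.07 at a level of 6.08, the opposite sign to its receptor. The integrin ITGB1 had 0.33 ± 0.07. Against control, CD81, CD70 and FLT3LG had 0.11 ± 0.18, 0.03 ± 0.17 and 0.02 ± 0.09 for the mean of the treatments.

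Other myeloid surface genes were dim. The 14 measured stood at 5.09 to 6.53 with SDs of 0.06 to 0.11 over the 11 arrays, beside 11.62 and 0.37 for ANPEP, and none was called in either contrast (medians 0.039 and -0.001). Their smallest unadjusted p-values were those of CSF3R and ITGAM against control (-0.08 ± 0.05 and 0.13 ± 0.09) and of ITGAM (0.14 ± 0.07) and CD36 (-0.09 ± 0.07) in arrays numbered 3. The 14 surface genes of T and NK cells stood at 5.57 to 6.31, and none was called (medians 0.022 and -0.023), with CD3G at 0.12 ± 0.09 and CD28 at -0.08 ± 0.07 against control and CD7 at -0.14 ± 0.07 and CD2 at -0.11 ± 0.07 in arrays numbered 3. Of the 11 B-precursor markers 1 was called higher and 3 lower in arrays numbered 3, or 36.4%. Of all genes 29.3% were called, and of the brighter ones 54.7%. The median of these markers was 0.099, with 7 above 0 and 4 below it, and VPREB3, at -0.59, was among those called. Of the 10 myeloid, 10 T and NK, 8 erythroid and platelet and 10 stromal markers none was called. In arrays numbered 1 and 2 none of these lists had a gene called against control, where 1% of all genes were. There 8 of the 35 typing antigens, 7 of the 28 partners and 0 of the 14 myeloid and 14 T and NK surface genes had an unadjusted p under 0.05, where 17.4% of all genes had one. The smallest p was that of CD81, at 0.28 ± 0.07 (adjusted p 0.0533, limma). In a bulk sample of 1 cell line, a smaller share of cells with an antigen and less of its RNA in each cell cannot be told apart.

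As a description, the gene most like each member was sought by Pearson's r over the 8 arrays numbered 1 and 2, among the 9888 brighter genes. For the median gene the highest r was 0.978, so values of that size are usual here. MME was most like PRKAB2, a subunit gene of the energy sensor AMPK (r = 0.995), CD38 like TMX3 (0.989), ANPEP like ADM, the gene of adrenomedullin (0.987), FLT3 like DOCK11 (0.984) and CD9 like ADPRM (0.982). CD22, CD24, CD34 and CD27 had UNC45A, RPL12, COX3 and RSPH3 at 0.976, 0.963, 0.95 and 0.934, below the usual value.

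The promoters of the members that varied most, CD9, ANPEP and FLT3, and of the 1 member whose windows hold the RUNX hexamer are shown because the fusion protein of Reh cells keeps the RUNX1 DNA-binding domain (RefSeq, GRCh38.p14, 5′ to 3′ on the gene's strand, 250 bases before to 50 after the most upstream listed start, motifs in capitals).
CD9: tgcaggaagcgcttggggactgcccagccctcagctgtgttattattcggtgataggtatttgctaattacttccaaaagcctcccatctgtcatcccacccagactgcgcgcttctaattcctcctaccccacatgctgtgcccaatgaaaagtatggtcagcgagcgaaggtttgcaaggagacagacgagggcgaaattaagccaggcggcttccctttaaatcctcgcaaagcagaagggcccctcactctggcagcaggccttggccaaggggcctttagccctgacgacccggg
ANPEP: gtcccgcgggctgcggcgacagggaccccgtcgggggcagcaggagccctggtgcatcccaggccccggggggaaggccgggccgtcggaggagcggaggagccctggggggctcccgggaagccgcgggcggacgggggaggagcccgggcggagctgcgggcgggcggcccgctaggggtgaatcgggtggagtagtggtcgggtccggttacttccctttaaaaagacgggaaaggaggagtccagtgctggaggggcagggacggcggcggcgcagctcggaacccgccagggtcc
FLT3: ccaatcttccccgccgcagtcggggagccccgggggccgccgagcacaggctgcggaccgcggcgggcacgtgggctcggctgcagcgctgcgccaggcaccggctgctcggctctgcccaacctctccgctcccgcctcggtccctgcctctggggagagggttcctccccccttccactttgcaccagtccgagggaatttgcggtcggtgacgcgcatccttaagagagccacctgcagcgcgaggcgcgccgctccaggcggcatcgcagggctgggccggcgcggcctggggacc
CD27: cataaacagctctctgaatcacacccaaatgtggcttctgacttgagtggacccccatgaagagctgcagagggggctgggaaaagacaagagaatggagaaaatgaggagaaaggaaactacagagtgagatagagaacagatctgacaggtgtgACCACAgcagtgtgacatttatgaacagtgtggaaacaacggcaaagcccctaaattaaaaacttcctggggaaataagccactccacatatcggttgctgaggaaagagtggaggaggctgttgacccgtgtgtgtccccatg
They lie at chr12:6199696-6199995 (plus strand), chr15:89814803-89815102 (minus strand), chr13:28100527-28100826 (minus strand) and chr12:6443642-6443941 (plus strand). The motifs searched on both strands were the RUNX hexamer TGTGGT and the ETS hexamer CCGGAA, which do not overlap here. TGTGGT was in 1 of the 9 members, CD27, and in 15.6% of all genes with a listed window, and CCGGAA was in windows of MME and CD24 only among the members and in 20.1% of all genes. The match in CD27 is that of the reverse strand, ACCACA. No match says only that these letters are not in this window.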

How the data were processed

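RNA of 11 samples had been hybridized to Affymetrix human arrays after one-cycle labelling, per the labels' protocols. Deposited values run from 4.398 to 14.839, which places them on a log2 scale, and array medians of 5.95 to 5.984 show scaling between arrays. How the authors summarised probe sets, corrected background and normalized is not given in the sources used here. Of 54675 probe sets, 41091 carried a single gene symbol and were no array controls (41037 matched RefSeq by gene identifier). Those with several symbols were left out, and each of 19775 genes was read from its brightest probe set. No detection call was available and no dim gene was removed. The number of arrays limits the precision.

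Group means were fitted over all 11 arrays with limma 3.58.1 (R 4.3.3, lmFit and eBayes), without a block, and p-values, 2-sided, were adjusted by Benjamini-Hochberg over all genes (called under 0.05). Replicate 3 was compared with replicates 1 and 2 in the 9 treated arrays with treatment as a term. There the moderation is strong (prior 42.2 against 5 residual degrees of freedom). The code was tested on simulated data. Same-numbered arrays of different treatments correlated after removing group means in 9 of 9 pairs (0.168 to 0.816). Pairs with control passed the minimum of 0.1 in 3 of 6 (-0.152 to 0.438). By that rule pairing was taken as met between treatments only. Arrays of different numbers were not correlated in this way. Because arrays numbered 3 stand apart, these correlations cannot show whether numbers 1 and 2 pair the treatments. Nor can they settle pairing with control, since the 2 control arrays deviate from their mean by equal and opposite amounts. The members and lists were chosen with earlier results of these data known. All 9 members are named, and of each list up to 4 genes past the threshold or the 2 with the smallest p, the 5 brightest typing antigens, CD81, CD70 and FLT3LG, and the gene most like each member. VPREB3, DNTT, VPREB1, MS4A1, CR2 and CD44 were chosen after their values were seen. The alternatives were quantile normalization, a filter at the median level, the mean of the probe sets, the replicate block, replicate 3 as a term, arrays 1 and 2 alone, an intensity trend, and leaving out each array. Robust moderation, single probe sets, the permutation test, the F test, the lists in arrays 1 and 2 and the further blocked fits were chosen after seeing the data.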

Additional observations from a re-analysis of the deposited data

How the results depend on the processing

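The counts of genes called against control depend on how the arrays numbered 3 enter. All arrays without a block gave 0 for each comparison, also without any 1 array. With the replicate block miR-99a gave 5, miR-100 7, both oligos 863 and the mean of the treatments 507, miR-100 against miR-99a gave 1 and the combination against single oligos 1. With replicate 3 as a term both oligos gave 443 and the mean of the treatments 24. Arrays numbered 1 and 2 gave 290, 198 and, for miR-100 against miR-99a, 1. For the combination against single oligos the block gave 6 on the treated arrays alone, 12 without arrays numbered 2 and 32 without arrays numbered 3. The cause was not tested. The 5794 genes of replicate 3 ranged from 4614 to 5894 when 1 array was left out. The replicate block changed the calls of ANPEP, MME and CD9 (both oligos against control, and ANPEP against single oligos) and no other call of the 9 genes. Of 1183 values of the 9 genes under an alternative, 9 lost a call, 8 gained one and 0 turned a called direction, while 77 that no fit called changed sign.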

Other observations

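The transcription factor genes of early B cells and progenitors had levels of both kinds. LEF1, MYB, EBF1 and PAX5 stood at 12.22, 12.2, 12 and 11.65, and the progenitor factor genes MEIS1 and GATA2 at 5.2 and 6.39. Of the 17 measured, 0 were called for the mean of the treatments against control (limma, median 0.017, beside -0.005 over all genes), where the smallest unadjusted p-values were those of SPI1, at 0.14 ± 0.1, and ETV6, at 0.07 ± 0.06. In arrays numbered 1 and 2 none was called against control either, and 1 had an unadjusted p under 0.05, SPI1 at 0.21 ± 0.07 (adjusted p 0.0963). In arrays numbered 3 against numbers 1 and 2 of the treatments, 3 were called higher and 4 lower, or 41.2% (median -0.067). Of all genes 29.3% were called, and 54.7% of those at the median level or over it. ERG, an ETS factor of progenitors, had 0.27 ± 0.07 and the lymphoid factor IKZF1 0.26 ± 0.07, while the E protein TCF3 and the E protein inhibitor ID2 each had -0.26 ± 0.07. The levels named here, other than those of SPI1, ETV6, ERG, TCF3, ID2 and IKZF1, were chosen after they were seen.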
